A study of Mus musculus with 6 samples.

Results

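The nuclear genome encodes most subunits of the mitochondrial respiratory chain. In the single-cell count table of astrocyte-enriched striatal cells, 84 of 32285 genes had a symbol of a nuclear-encoded subunit of complexes I to IV or of the ATP synthase. Such symbols start with *Nduf*, *Sdh*, *Uqcr*, *Cox4* to *Cox8* or *Atp5* by a fixed pattern, without symbols that mark pseudogenes. The 84 genes comprised 7 catalytic core and 30 accessory subunits of complex I, 4 subunits of complex II, 8 of complex III, 18 of complex IV and 17 of the ATP synthase. They were followed over cell types, astroglial sub-clusters, pseudotime bins and ages, beside the 13 genes starting with mt-, which mitochondrial DNA encodes. Striatal cells of wild type male C57BL/6 mice, either 3 days old (P3) or 3 months old (3m), had been enriched with beads against ACSA2, an astrocyte surface antigen, with 3 libraries per age. No mouse carried a transgene or had been treated, each library pooled the brains of several mice, and age and preparation cannot be told apart.

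Complexes I and II pass electrons from NADH and succinate to ubiquinone, complex III passes them on to cytochrome c, complex IV reduces oxygen, and the ATP synthase uses the proton gradient that complexes I, III and IV build. Complexes I, III and IV and the ATP synthase hold subunits of both genomes, while complex II is nuclear-encoded throughout. Several subunits of complex IV, and the c subunit of the ATP synthase, come in isoforms from separate genes, some of which are known for restricted expression, as *Cox4i2* in lung and vessel walls or *Cox6a2*, *Cox7a1* and *Cox8b* in heart and skeletal muscle. *Ndufa4* and its relative *Ndufa4l2* carry complex I symbols and are counted there, although the NDUFA4 protein is assigned to complex IV.

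The 3m libraries held 5471573 to 10522151 UMIs each and the P3 libraries 32193875 to 37795021, of which astroglial cells held 1157485 to 1843998 and 22327104 to 30617140. The authors' annotation gave 213, 546 and 359 astroglial cells in the 3m libraries and 1985, 3103 and 3786 in the P3 libraries. Of 16653 barcode sequences, 37 occurred in more than 1 library. In 3m replicate 1, 836 of 1653 barcodes held at least 10% mt- UMIs, the limit above which the authors left cells out, against 323 of 1769 and 302 of 1308 in the other 3m libraries and 32 to 57 in each P3 library. The summed astroglial markers (*Aqp4*, *Slc1a3*, *Slc1a2*, *Gja1*, *Sox9*, *Aldh1l1*) stood at 9819 to 10341 counts per 1000000 UMIs (CPM) in 3m astroglial cells and at 4194 to 5257 in P3 astroglial cells, with none of the 6 at 0. Levels are CPM, the UMIs of a gene over all UMIs of the same sum of cells. A UMI counts a molecule, so gene length does not enter. A level is relative to all other RNA of the cells. The fold changes of the tests are also scaled between libraries (TMM). In the astroglial sums the factors were 0.92 to 0.97 at 3m and 0.996 to 1.12 at P3. Fold changes can thus differ from ratios of CPM.

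Summed over all members, the nuclear-encoded part of the respiratory chain took a like share of astroglial RNA at both ages, while the mt- genes did not. The 84 genes made up 3.63%, 4.33% and 4.24% of UMIs in 3m replicates 1 to 3 and 3.99%, 4.94% and 4.20% in P3 replicates 1 to 3, so the ages overlapped (4.07% ± 0.38 against 4.38% ± 0.50, SD, n = 3 each). The 13 mt- genes made up 8.01%, 6.14% and 6.37% at 3m and 2.61%, 1.89% and 1.45% at P3, with no overlap. With mt- UMIs left out of the total, the members stood at 4.36% ± 0.36 at 3m and 4.47% ± 0.50 at P3 (SD, n = 3). Replicate 2 was highest and replicate 1 lowest at both ages, while the mt- share was highest in replicate 1 at both ages. These sums are descriptions without a test.

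**Figure D1:**
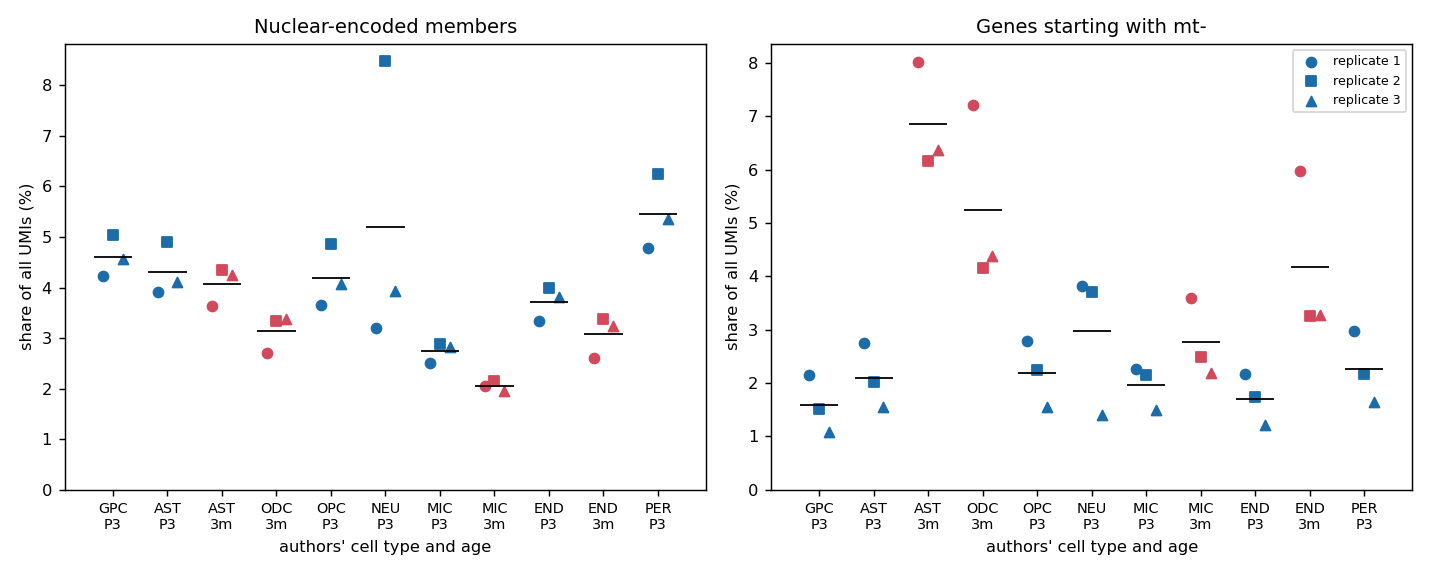
Share of all UMIs (%) held by the nuclear-encoded members (left) and by the genes starting with mt- (right) in each of the authors' cell types (GPC, glial progenitor cells; AST, astrocytes; ODC, oligodendrocytes; OPC, their precursors; NEU, neurons; MIC, microglia; END, endothelial cells; PER, pericytes) with at least 10 cells per library. Points are libraries (red 3m, blue P3), and lines are means; members stand at similar shares in P3 and 3m astrocytes, and mt- genes are higher at 3m.

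To find which members differed with age, UMIs were summed over the astroglial cells of each library and tested with edgeR's quasi-likelihood test (Benjamini-Hochberg adjustment over all genes tested). A gene passed at an adjusted p of at most 0.05. Of the 82 members tested, 11 were higher at 3m and 2 lower, against 23.3% of 13530 genes higher and 25.7% lower. Their median log2 fold change was 0.09 and that of all genes -0.04. At least 2-fold higher among those that passed were 4 members, all of complex IV, against 15.8% of all genes. That count was 2 when P3 replicate 1, P3 replicate 3 or 3m replicate 3 was left out. Of the 4, *Cox7b2* and *Cox8b* entered the test only through their 3m libraries, the age at which they were higher. At P3 alone they were too low for the filter on low counts, so they add no support for a rise. The other 69 of the 82 did not pass, and *Cox6a2* and *Cox8c*, with 6 and 2 UMIs over all 6 libraries, were too low to be tested. The counts depended on the scaling. Without scaling beyond library totals, 9 passed as higher and 11 as lower, and the median of all genes moved to -0.24 and that of the members to -0.09. All 13 mt- genes passed as higher at 3m, by log2 fold changes of 1.26 (*mt-Nd1*) to 2.78 (*mt-Atp8*) with a median of 2.06. Among cells with under 5% mt- UMIs, which left 325 of 1118 cells at 3m and 8657 of 8874 at P3, the log2 fold change of *mt-Nd1* was 0.34 and did not pass (edgeR, adjusted p = 0.434), 10 of the 13 mt- genes still passed as higher, and 5 members passed as higher and 1 as lower. That filter selects on the mt- share itself, which among the cells left was 3.80% ± 0.22 at 3m and 1.92% ± 0.53 at P3 (SD, n = 3), with no overlap. Leaving out 3m replicate 3 likewise left 5 higher and 1 lower, without P3 replicate 2 there were 13 and 1, and without P3 replicate 1 there were 10 and 4.

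**Figure D2:**
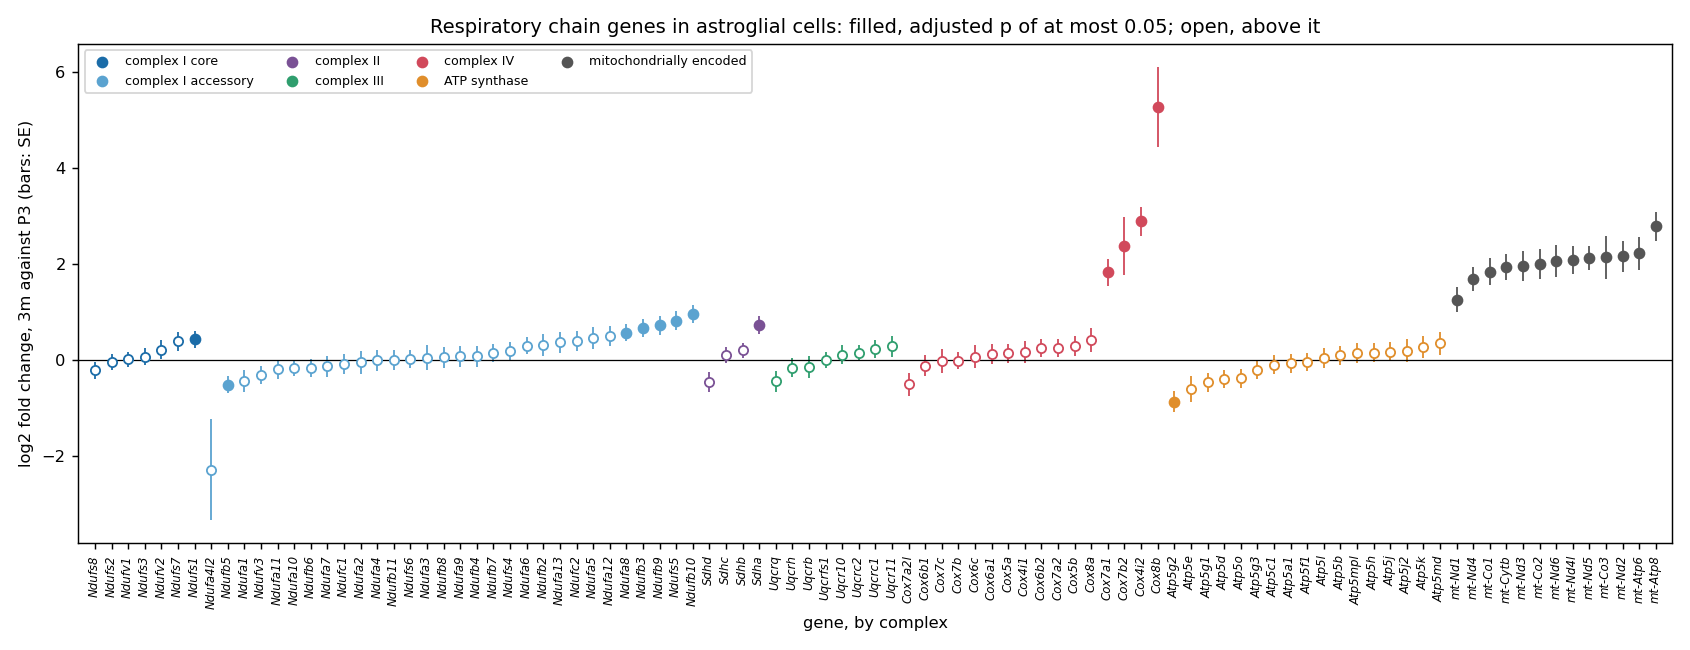
Log2 fold change of every tested member and mt- gene in astroglial cells, 3m against P3 (bars, SE; 3 libraries per age; edgeR). Filled symbols passed; the 4 complex IV isoforms at the right of their group and the 13 mt- genes stand above the rest, and most members lie near 0.

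The members that passed with the largest fold changes were 4 complex IV isoforms. *Cox4i2* (chr2:152754173-152765037, GRCm38), the alternative isoform of subunit 4, stood at 55.3, 55.9 and 83.5 CPM in the 3m astroglial sums and at 5.5, 12 and 12.3 at P3. It rose by a log2 fold change of 2.89 ± 0.30 (SE; 7.4-fold, adjusted p = 5.05e-06). *Cox7a1*, the isoform of subunit 7a known from heart and muscle (chr7:30184144-30186078), stood at 11.2, 20.1 and 19.7 CPM at 3m and 4.9, 6.5 and 5.2 at P3, and rose by 1.83 ± 0.28. Neither gene's libraries overlapped between the ages. *Cox7b2* rested on 2, 4 and 11 UMIs at 3m and 11, 28 and 26 at P3 in sums about an order of magnitude larger. Its log2 fold change was 2.38 ± 0.60, and without 3m replicate 3 it did not pass (adjusted p = 0.163). *Cox8b* rested on 4, 4 and 5 UMIs at 3m and on 0, 1 and 5 at P3, or 3.5, 2.2 and 3.4 CPM against 0, 0.033 and 0.20, with a log2 fold change of 5.27 ± 0.84 that depends on the prior count. The broadly expressed partners of these isoforms did not pass, with log2 fold changes of 0.18 for *Cox4i1*, 0.25 for *Cox7a2*, -0.01 for *Cox7b* and 0.42 for *Cox8a*. *Ndufa4l2*, a paralogue of *Ndufa4*, had a log2 fold change of -2.28 ± 1.05 and did not pass (adjusted p = 0.0875), with 1.7, 0 and 0.68 CPM at 3m and 1.5, 2.7 and 7.3 at P3. Those libraries overlapped. *Cox4i1* stood at 1248 to 1814 CPM at 3m, so *Cox4i2* remained the minor isoform by UMIs.

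*Cox4i2* is known from mural cells, so the mural markers *Pdgfrb*, *Rgs5*, *Vtn*, *Acta2* and *Des* are given beside it. They summed to 101, 65.1 and 72.7 CPM in the 3m astroglial sums and to 46.0, 36.9 and 80.6 at P3, ranges that overlapped, and the endothelial markers to at most 2.0 CPM at 3m. *Ndufa4l2*, which stood above *Cox4i2* in every library of the authors' pericyte cluster (1654 to 1937 against 514 to 712 CPM), had 2, 0 and 1 UMIs in the 3m astroglial sums. In oligodendrocytes of the same libraries *Cox4i2* stood at 2.8 to 4.1 CPM. The oligodendrocyte markers summed to 1424, 1858 and 700 CPM in 3m astroglial cells and 5.5 to 6.4 at P3. Without the cells that held 3 or more of their UMIs, the log2 fold change of *Cox4i2* was 3.08. The part of RNA from other cell types in the astroglial level of *Cox4i2* was not tested.

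In complex I, 5 accessory subunits and 1 core subunit rose and 1 accessory subunit fell. *Ndufb10* stood at 489, 510 and 504 CPM at 3m and 284, 334 and 261 at P3, a rise of 0.95 ± 0.19 on the log2 scale (adjusted p = 0.00106). *Ndufs5* stood at 627, 646 and 733 CPM against 426, 486 and 378, a rise of 0.82 ± 0.20. *Ndufb9* (0.73), *Ndufb3* (0.67) and *Ndufa8* (0.57) followed. *Ndufb10* passed under each of the 20 settings run. *Ndufb9* and *Ndufb3* did not pass without 3m replicate 3 (adjusted p = 0.0623 and 0.0553), nor *Ndufa8* without any single 3m library. *Ndufb5* fell by 0.51 on the log2 scale, from 402, 469 and 434 CPM at P3 to 251, 291 and 266 at 3m, and did not pass without 3m replicate 1 or 3 or without P3 replicate 2 or 3. Of the 7 core subunits, which carry the flavin and the iron-sulfur clusters, only *Ndufs1* passed in the full fit (0.43 ± 0.17, adjusted p = 0.048), with libraries that overlapped, and it passed under 6 of the 20 settings, the full fit included. The other core subunits lay between -0.21 (*Ndufs8*) and 0.39 (*Ndufs7*).

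In complex II, *Sdha*, the flavoprotein that oxidises succinate, stood at 157, 153 and 147 CPM at 3m and at 134, 91.0 and 89.3 at P3. It rose by 0.74 ± 0.18 on the log2 scale (adjusted p = 0.00473). The iron-sulfur subunit gene *Sdhb* (0.20) and the membrane anchors *Sdhc* (0.11) and *Sdhd* (-0.46) did not pass. None of the 8 complex III members passed, with 0 at an unadjusted p under 0.05 by edgeR, 1 lower with DESeq2, and log2 fold changes of 0.24 for *Uqcrc1* and 0.16 for *Uqcrc2*, the core proteins, and 0.01 for *Uqcrfs1*, the Rieske iron-sulfur protein.

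In the ATP synthase, *Atp5g2* fell, and no other gene of the 17 passed with edgeR, while 5 of the 17 passed as lower with DESeq2. The genes *Atp5g1*, *Atp5g2* and *Atp5g3* encode the same mature c subunit of the membrane ring with different import sequences. *Atp5g2* stood at 410, 569 and 530 CPM at 3m and at 915, 1200 and 1005 at P3, a fall of 0.86 ± 0.22 on the log2 scale (adjusted p = 0.00579). *Atp5g1* (329 to 401 against 479 to 659 CPM) and *Atp5g3* (353 to 414 against 441 to 558 CPM) were lower at 3m in CPM. Their log2 fold changes after scaling, -0.46 and -0.21, did not pass. The catalytic subunits *Atp5a1* and *Atp5b* stood at -0.07 and 0.10. The promoter windows of the 3 c subunit genes (250 bases before to 50 after the start in RefSeq, GRCm38.p6) are shown because the genes make 1 product and differed in their levels. They lie at chr15:102670998-102671297 (- strand), chr11:96075582-96075881 (- strand) and chr2:73911277-73911576 (- strand), and capitals mark letters of the motifs searched on both strands.
Atp5g2: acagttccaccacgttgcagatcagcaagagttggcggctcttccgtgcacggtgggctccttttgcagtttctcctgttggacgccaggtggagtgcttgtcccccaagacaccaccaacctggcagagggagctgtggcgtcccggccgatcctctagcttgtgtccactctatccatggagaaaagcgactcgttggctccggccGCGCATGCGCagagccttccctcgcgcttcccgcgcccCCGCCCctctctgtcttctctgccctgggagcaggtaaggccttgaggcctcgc
Atp5g1: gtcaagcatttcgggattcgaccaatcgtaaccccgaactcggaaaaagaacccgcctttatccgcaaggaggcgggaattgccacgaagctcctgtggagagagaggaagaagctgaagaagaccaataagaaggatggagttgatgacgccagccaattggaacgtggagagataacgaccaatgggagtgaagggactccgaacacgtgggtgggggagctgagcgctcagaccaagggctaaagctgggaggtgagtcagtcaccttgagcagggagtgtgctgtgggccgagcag
Atp5g3: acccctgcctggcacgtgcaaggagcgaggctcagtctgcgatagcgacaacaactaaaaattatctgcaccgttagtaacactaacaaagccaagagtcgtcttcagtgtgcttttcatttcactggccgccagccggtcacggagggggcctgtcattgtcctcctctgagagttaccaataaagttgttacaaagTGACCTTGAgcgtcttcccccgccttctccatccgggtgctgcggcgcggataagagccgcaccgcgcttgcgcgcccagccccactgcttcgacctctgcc
The *Atp5g2* window held the NRF1 core (GCGCATGCG) and a GC box (GGGCGG, here on the other strand), and the *Atp5g3* window the letters TCAAGGTCA of an oestrogen-related receptor site. The *Atp5g1* window held none of the 5 motifs. Over 72 windows of 67 members, 11.1% held the NRF1 core against 1.75% of 32851 windows of all genes, and 9.72% held the YY1 letters AAGATGGCG against 1.4%. The ETS letters CCGGAAGT stood in 6.94% against 3.89%, the receptor site in 2.78% against 0.423% and the GC box in 38.9% against 35.7%. A match is a run of letters and not a binding site, and these shares have no test. For 17 of the 84 members no window was available, among them *Cox4i2*, *Ndufs1* and *Ndufb9*, which passed with age. Of the members that passed with age and had a window, *Ndufa8* and *Atp5g2* held the NRF1 core, and they differed in opposite directions. The windows of the subunit 7a isoforms, *Cox7a1* at chr7:30183921-30184220 (+ strand) and *Cox7a2* at chr9:79759804-79760103 (- strand), are shown for the pair of which the muscle isoform rose, with a GC box in that of *Cox7a2* and no searched motif in that of *Cox7a1*.
Cox7a1: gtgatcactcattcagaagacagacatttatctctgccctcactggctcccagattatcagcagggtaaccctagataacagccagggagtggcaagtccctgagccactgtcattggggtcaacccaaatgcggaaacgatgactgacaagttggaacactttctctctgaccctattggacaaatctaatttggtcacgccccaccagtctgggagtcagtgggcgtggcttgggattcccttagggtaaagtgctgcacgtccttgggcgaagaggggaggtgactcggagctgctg
Cox7a2: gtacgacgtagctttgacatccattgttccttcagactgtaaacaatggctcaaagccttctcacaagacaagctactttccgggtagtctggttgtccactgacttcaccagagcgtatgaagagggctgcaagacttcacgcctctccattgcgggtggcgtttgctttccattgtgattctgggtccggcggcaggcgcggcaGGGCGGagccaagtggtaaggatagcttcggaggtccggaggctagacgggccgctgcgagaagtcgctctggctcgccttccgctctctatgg

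Other mitochondrial and metabolic genes were counted in the same fit, in which 23.3% of all genes were higher and 25.7% lower. Of 38 assembly factors tested, 10 rose and 2 fell, led by *Lyrm7* (1.48) and *Cox10* (1.47), which attaches the farnesyl group to haem for complex IV, and by *Sdhaf1* (-0.80). Of 17 glycolysis genes, 11 rose and 2 fell, with *Pfkp* (5.51) and *Aldoc* (2.58), the brain aldolase, at the top and *Hk2* (-2.38) and *Ldha* (-1.25) at the bottom. The tricarboxylic acid cycle had 3 genes higher and 3 lower of 13, with *Suclg1* at 0.97 and *Mdh2* at -0.55. The share of assembly factors that rose, and both shares of this cycle, were near those of all genes. Of 78 mitochondrial ribosomal proteins, 1 rose and 25 fell (median -0.30), and of 81 cytosolic ribosomal proteins 0 rose and 74 fell (median -1.25), with 0 higher at an unadjusted p under 0.05 by edgeR or with DESeq2. None of 5 electron carriers passed with edgeR, with 1 lower at an unadjusted p under 0.05 and 1 lower with DESeq2. Among 14 genes of mitochondrial biogenesis, *Esrra* (1.15) and *Ppargc1a* (0.58) rose, and *Gabpb1* (-1.36) and *Yy1* (-0.80) were among 3 that fell.

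Across cell types the members' share was highest on average in pericytes among the named types, at 4.78%, 6.25% and 5.35% of UMIs in P3 replicates 1 to 3, and lowest in microglia, at 2.50% to 2.89% at P3 and 1.95% to 2.15% at 3m. Cluster 20 of the P3 cells, which the authors left unidentified, stood higher, at 6.06%, 7.09% and 7.78% from 32, 33 and 25 cells. Complex IV took 2.60% there on average, and cytosolic ribosomal proteins 59.8% to 66.9%. Oligodendrocytes (2.71% to 3.38%) and 3m endothelial clusters (2.60% to 3.37%) lay below 3m astrocytes in each library. P3 neurons ranged from 3.19% to 8.49% over libraries of few cells, with the high value in P3 replicate 2. The authors' glial progenitor cells (4.23%, 5.05% and 4.57%) lay above P3 astrocytes in each library. The share of pericytes exceeded that of microglia in each P3 library for each of the complexes, with means of 1.46% against 0.725% for complex IV and 1.57% against 0.858% for the ATP synthase. Among members of at least 100 CPM in their highest named type, *Cox4i2* and *Ndufa4l2* ranged from a mean of 584 and 1807 CPM in pericytes to 0 UMIs in 3m microglia. Cluster 21 of the 3m cells, which the authors left unnamed, held more of both in each library, with *Cox4i2* at 1234 to 1724 CPM, *Ndufa4l2* at 2393 to 2839 CPM and mural markers at 34183 to 47159 CPM in 21 to 25 cells. Next by the ratio of means came *Atp5g3*, with a mean of 94.7 CPM in 3m microglia and 400, 1542 and 673 CPM in neurons of P3 replicates 1 to 3, and *Ndufa4*, with a mean of 349 CPM in pericytes and 1043, 3403 and 1211 CPM in those neurons. The neuron means rest on P3 replicate 2, without which *Atp5g3* in neurons lay within or below the 594 to 798 CPM of pericytes. In each P3 library *Ndufa4* was higher in neurons than in pericytes, and *Ndufa4l2*, at 0 UMIs in neurons, the reverse. Endothelial cells also held *Cox4i2* (126 to 385 CPM) and *Ndufa4l2* (326 to 475 CPM), and their mural markers summed to 6071 to 6760 CPM in the 3m cluster 17, whose part was not tested.

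**Figure D3:**
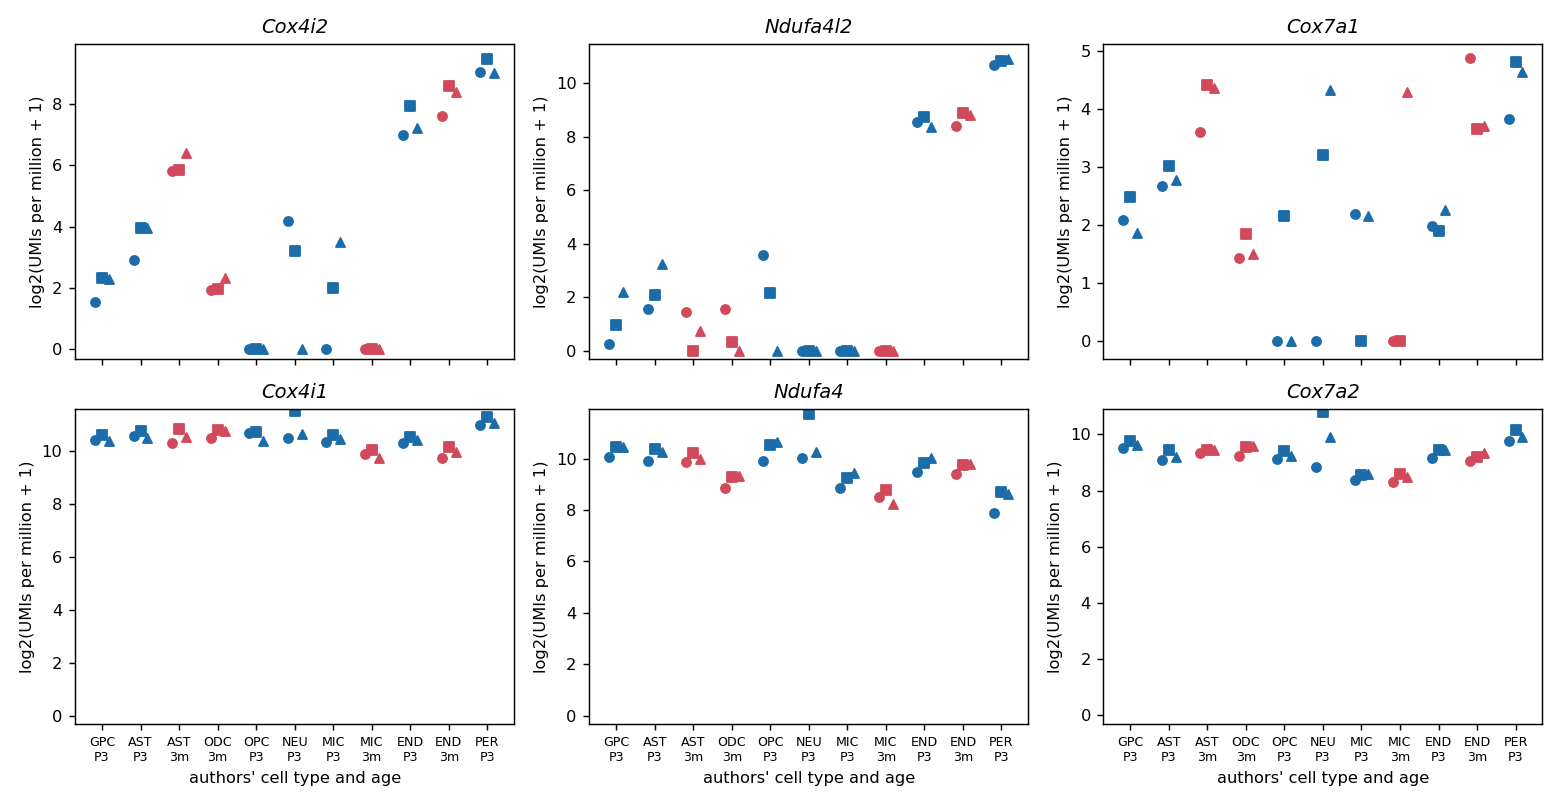
Levels of 3 restricted isoform genes (top) and their broadly expressed counterparts (bottom) as log2(CPM + 1) in each library of the authors' cell types (red 3m, blue P3; circles, squares and triangles are replicates 1 to 3). *Cox4i2* and *Ndufa4l2* are highest in pericytes among the types plotted, and *Cox4i2* lies higher in 3m than in P3 astrocytes.

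Microglia formed 1 cluster that held cells of both ages, 17 to 23 per 3m library and 34 to 46 per P3 library. Of 74 members tested, 5 fell and 0 rose, against 4.18% of 2679 genes lower and 7.39% higher, and 3 of the 5 fell at least 2-fold, against 3.43%. No member was higher at an unadjusted p under 0.05, nor passed as higher with DESeq2. *Atp5g3* fell most, from 313, 319 and 407 CPM at P3 to 88.9, 139 and 56.2 at 3m (-1.66 ± 0.32, adjusted p = 0.00295). *Uqcrfs1* (-1.21), *Atp5g2* (-1.03), *Cox5a* (-0.99) and *Atp5g1* (-0.92) followed, so all 3 c subunit genes fell. The 5 genes rested on 3 to 60 UMIs per 3m library. The count of lower members was 1 without 3m replicate 1, 2 without 3m replicate 2 or 3 and 3 without P3 replicate 3. Other cell types' markers also differed between these sums. The 5 oligodendrocyte markers summed to 18.9 CPM in P3 microglia and 1543 CPM at 3m, and the 3 cycling markers to 326 and 0 CPM, whose part in the counts was not tested. Of 12 mt- genes tested, 1 rose (*mt-Nd2*, 1.09 ± 0.27), and the median over the 12 was 0.60. Whether the age difference itself differed between microglia and astroglial cells was tested with an interaction term and library as a block. It passed as lower in microglia for 27 of 74 members and for all 12 mt- genes, against 12.3% of genes, and as higher for 0 members (0 at an unadjusted p under 0.05 by edgeR, the only tool run for it), against 6.68%. The member count ranged from 12 without P3 replicate 1 to 27 without 3m replicate 1, with 14 without P3 replicate 3 and 15 without 3m replicate 3. Without scaling the member count was 10, with medians of -0.27 over members and 0.27 over all genes in place of -0.63 and -0.09. The differences come from a joint fit of both cell classes, so they are not the separate fold changes subtracted. For the mt- genes the differences ran from -2.24 to -1.51 on the log2 scale.

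Within the 3m libraries, oligodendrocytes held less of most members than astroglial cells. The authors' clustering used the same counts, and sums of the same library were paired by a block. Of 79 members tested, 53 were lower in oligodendrocytes and 3 higher, against 33.5% and 32.3% of 10367 genes, and 9 were at least 2-fold lower, against 24.0%. The median was -0.39, against 0.00 over all genes. By complex, 14 of 17 ATP synthase members, 7 of 8 of complex III, all 4 of complex II, 7 of 14 of complex IV and 21 of 36 of complex I were lower. Without 3m replicate 3, 31 were lower. *Cox4i2* was lowest relative to astroglial cells, at 2.8, 2.9 and 4.1 CPM against 55.3, 55.9 and 83.5 (-4.29 ± 0.20). *Ndufa12* stood at 163, 151 and 148 CPM against 546, 414 and 449 (-1.60 ± 0.11), and *Cox5a*, a subunit present in all complex IV, at 243, 280 and 291 CPM against 627, 627 and 761 (-1.30 ± 0.11). *Ndufa3* (0.51), *Cox7a2l* (0.33), known for joining complexes III and IV, and *Atp5g1* (0.30) were higher in oligodendrocytes. Of 13 mt- genes, 7 were lower and 1 higher, while 70 of 81 cytosolic ribosomal proteins were higher. All 5 electron carriers and 14 of 15 glycolysis genes were lower, with *Etfa* at -1.85 and *Aldoc* at -5.13. *Ppargc1a*, a coactivator of mitochondrial biogenesis, stood at -4.95.

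Within the P3 libraries, cycling astroglial cells (the authors' sub-clusters 6 and 8) were set against all other astroglial cells, again from the same clustering and with a library block. Of 81 members tested, 55 were higher in cycling cells and 6 lower, against 30.2% and 31.3% of 13225 genes. The changes were small, with a median of 0.23 and the highest at 0.75, and 2 members were at least 2-fold lower, against 10.2%. Higher were 15 of 17 ATP synthase members, all 4 of complex II, 5 of 8 of complex III, 9 of 15 of complex IV and 22 of 37 of complex I. *Atp5g2* stood at 1219, 1537 and 1429 CPM in cycling cells and 808, 1085 and 883 in the others (0.75 ± 0.07, adjusted p = 6.5e-07). *Cox5a* (0.61), *Atp5b* (0.57), *Cox7a2* (0.55) and *Atp5g1* (0.55) followed. *Cox4i2* was lower, at 2.2, 4.5 and 4.2 CPM against 6.7, 14.5 and 14.6 (-1.55 ± 0.16), and so were *Ndufa4l2* (-1.33), *Cox7a1* (-0.69), *Ndufv3* (-0.27), *Ndufa1* (-0.20) and *Ndufa13* (-0.16). The mt- genes went the other way, with 10 of 13 lower in cycling cells, 0 higher and a median of -0.32. None was higher at an unadjusted p under 0.05 or with DESeq2. *mt-Nd5* stood at 224, 173 and 140 CPM against 350, 284 and 305 (-0.67 ± 0.08). All 81 cytosolic ribosomal proteins and 64 of 78 mitochondrial ones were higher in cycling cells. Without scaling beyond library totals, 27 members were higher and 10 lower, with the median of all genes at -0.19 in place of -0.04.

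**Figure D4:**
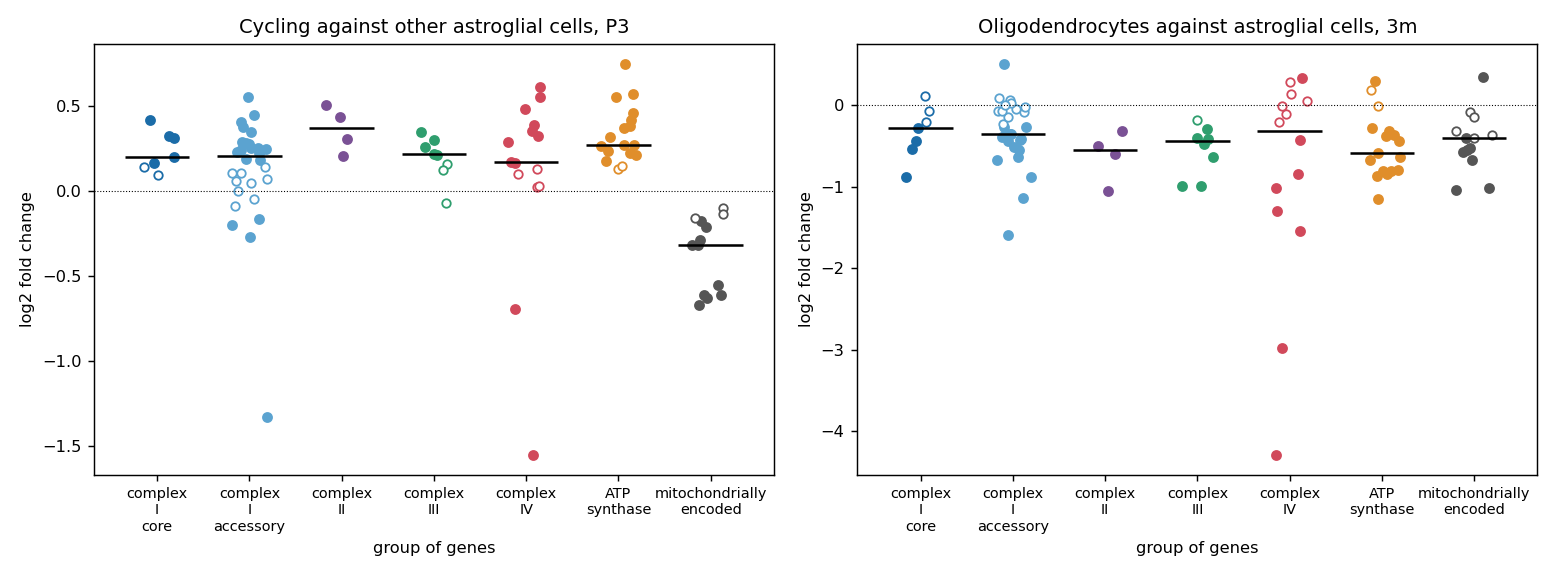
Log2 fold changes of members and mt- genes for cycling against other astroglial cells at P3 (left) and oligodendrocytes against astroglial cells at 3m (right), by complex. Each point is a gene (filled, passed; open, did not pass), and black lines are medians; nuclear-encoded groups have medians above 0 on the left and below 0 on the right, while mt- genes lie below 0 on the left.

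Along the authors' pseudotime, which runs from cycling P3 cells (from bin 2) to 3m cells (bins 15 to 19), the members' share had a maximum late in the P3 cells. In each P3 library bin 12 was the highest, at 4.92%, 5.94% and 5.18% of UMIs in replicates 1 to 3, and bin 14 the lowest, at 3.72%, 4.48% and 4.0%. The 3m bins with at least 10 cells of a library ranged from 3.44% to 4.62%. The mt- share rose over the last P3 bins, from 2.19%, 1.73% and 1.25% in bin 12 to 3.12%, 2.72% and 2.09% in bin 14, and reached 8.71% in bin 19, which held enough cells in 3m replicate 1 only. *Atp5g2* fell in level from bin 11 (1277, 1686 and 1545 CPM) to bin 14 (659, 831 and 700 CPM) in each P3 library. *Cox4i2* lay between 0 and 12.1 CPM in all P3 bins and between 50.8 and 150.5 CPM in bins 17 to 19. Median UMIs per cell differed between the bins, at 11016, 10263 and 4455 in bin 12 and 7990, 7470 and 6581 in bin 14, and their part was not tested. Bins are ordered by the same counts, so these are descriptions.

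**Figure D5:**
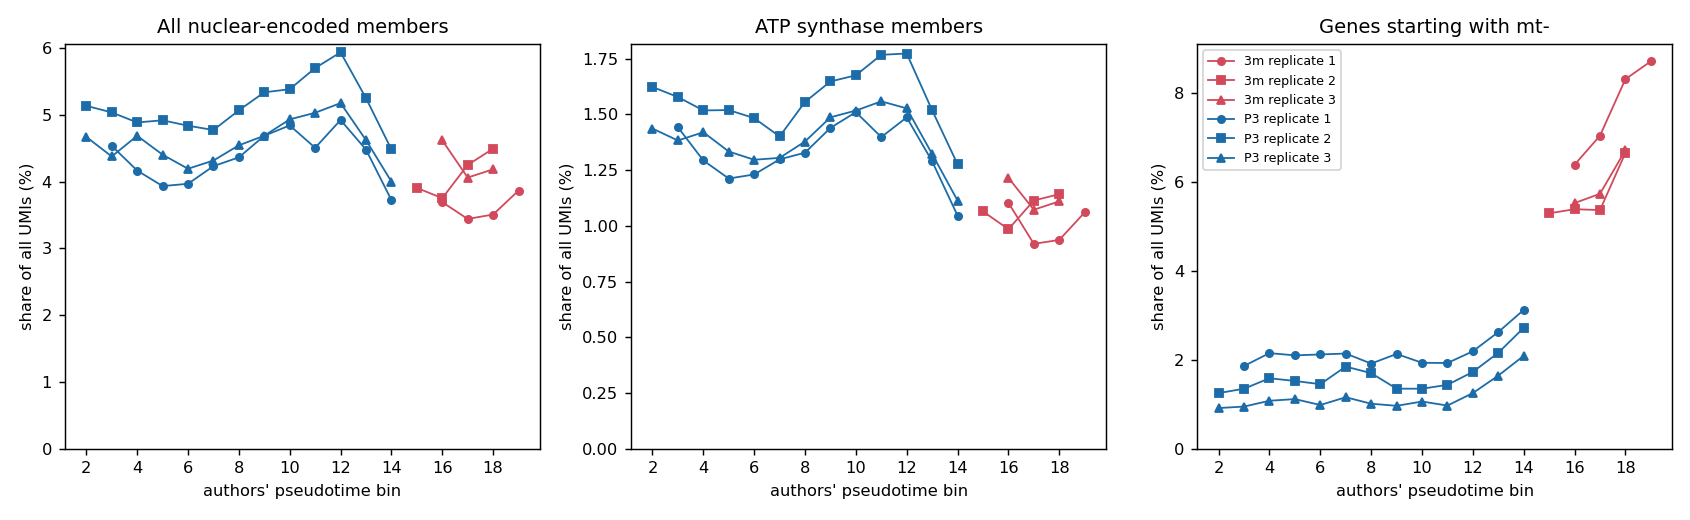
Share of all UMIs (%) held by all members (left), the ATP synthase members (middle) and the mt- genes (right) in the authors' pseudotime bins, 1 line per library (red 3m, blue P3; at least 10 cells). Among P3 bins, shares of all members peak at bin 12, and those of the ATP synthase at bins 10, 12 and 11 in replicates 1 to 3. Both are lowest in bin 14 among P3 bins, where mt- shares are highest.

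Among astroglial sub-clusters, the members' share was highest in sub-cluster 16 of the 3m cells (5.29%, 5.76% and 7.03% in 3m replicates 1 to 3, from 14, 89 and 18 cells) and in sub-cluster 2 of the P3 cells (4.86%, 5.80% and 5.14%). In sub-cluster 16 the excess lay mostly in complex IV, which took 2.54% on average against 1.11% in sub-cluster 7, and its leading members were *Cox8a* (mean 7218 CPM) and *Cox4i1* (4368 CPM). Its cytosolic ribosomal proteins took 19.4% to 23.8% of UMIs against 3.86% to 4.20% in sub-cluster 7, and its cells held a median of 2484, 1658 and 1604 UMIs against 1466, 3234 and 3903 there, whose part was not tested. Sub-clusters 3, 5, 10 and 15, which the study places outside the telencephalic lineage, had means of 3.57% to 3.61%, while sub-clusters 4 and 12, also outside it, stood at 4.37% and 3.77% and the telencephalic sub-cluster 1 at 3.37%. Sub-cluster 14 came almost wholly from 3m replicate 1, sub-cluster 1 almost wholly from P3 replicate 1, and sub-clusters 4 and 12 almost wholly from P3 replicate 3, with median UMIs of 1040 and 952 in that library.

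*Cox4i2* differed between sub-clusters at both ages. Among 3m sub-clusters it stood at 96.1 to 101 CPM in sub-cluster 7 and 56.3 in sub-cluster 14, both of the telencephalic lineage in the study. In sub-cluster 13, outside that lineage, it stood at 1.5 and 15.4 CPM in 3m replicates 2 and 3. These rest on few UMIs of the gene, in sums of 679697 and 195237 UMIs. So does the sub-cluster 7 value of 3m replicate 1 (99.7 CPM), from 14 cells with 30081 UMIs. Sub-cluster 16, likewise outside it, stood at 26, 22.6 and 0 CPM in 3m replicates 1 to 3, on at most 4 UMIs. Among P3 sub-clusters it stood at 0 to 17.7 CPM in the telencephalic sub-clusters 0, 1, 2, 9 and 11, and at 18.4 to 83.9 CPM in sub-clusters 3, 5 and 10 outside it, while sub-cluster 15, also outside it, stood at 1.7 to 6.1 and sub-cluster 4, outside it too, at 0 and 12.6 in P3 replicates 2 and 3. With the telencephalic sub-clusters alone, the log2 fold change of *Cox4i2* with age was 4.05. Mural markers summed to 112 to 196 CPM in sub-cluster 10, with *Ndufa4l2* at 0 to 3.6 CPM. In sub-cluster 12 both *Cox4i2* (78.0 CPM) and *Ndufa4l2* (253 CPM) were present, with mural markers at 2001 CPM. *Cox6b2*, known as the testis isoform of subunit 6b, was highest in sub-cluster 15 (120, 137 and 183 CPM in P3 replicates 1 to 3), where the multiciliated cell markers *Foxj1*, *Ccdc153* and *Tmem212* summed to 770 to 1047 CPM, and stood at 7.3 to 33.7 CPM in the other P3 sub-clusters.

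Within libraries, astroglial cells were split into 3 equal groups by their own mt- share, and the members' share of non-mt- UMIs was compared. At 3m it was 3.79%, 4.48% and 4.35% in the lowest group of replicates 1 to 3 and 4.12%, 4.70% and 4.73% in the highest, higher in each library. At P3 it was 4.16%, 5.12% and 4.21% in the lowest and 3.89%, 4.96% and 4.27% in the highest group, lower in 2 libraries and higher in 1. Median UMIs per cell were also higher in the highest group than in the lowest in each library. Cells of a library are not replicates, and no test was made.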

How the data were processed

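Single cells of 6 libraries (3 at P3, 3 at 3m) were measured with 10x 3′ chemistry. The authors deposited raw UMI counts per gene and cell, made with Cell Ranger on mm10 and processed with Seurat 3.1.1 per the labels' processing notes, and a deposited table of cell annotations with clusters and a pseudotime score. Barcodes without an annotation were left out of the comparisons. No doublet caller was run, and the study's stated cell filters name no doublet removal. UMIs were summed per library and cell class, and each sum was tested with edgeR 4.0.16 (R 4.3.3, limma 3.58.1; TMM scaling, its default filter on low counts, quasi-likelihood, two-sided, Benjamini-Hochberg over all genes tested), with library as a block where both classes came from the same libraries. The test was run on simulated data first. DESeq2 1.42.0, other scalings, no filter, thinning, cell filters, the replicate block and leaving out each library were alternatives. Replicates pooled several mice, so p-values measure the spread between libraries. Shares and levels used pandas 2.3.3 and only libraries with at least 10 cells of a class. Members and gene lists were chosen with earlier results of these data known. Named were the 5 largest changes each way that passed, complex I core and complex II genes, complex III core genes, isoform families, catalytic ATP synthase genes, mt- genes, at most 2 genes each way per list and the members with the largest ratio between types. *Ndufb9*, *Ndufb3*, *Ndufa8*, and members named for passing as lower or higher beyond those, were named after their values were seen. Promoters came from RefSeq (GRCm38.p6) and gene positions from GENCODE M21.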

Additional observations from a re-analysis of the deposited data

Results flagged for a closer look

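The age difference (3m against P3) in microglia differed from that in astroglial cells for 27 of 74 members and all 12 mt- genes tested, by an interaction term with library as a block (edgeR, adjusted p of at most 0.05), a test chosen after seeing the data. Each value is the interaction term of a joint fit of both cell classes, on the log2 scale. A negative value says that the change with age was lower in microglia. The terms are not the separate fold changes subtracted. *Atp5g3* had -1.66 in microglia and -0.21 in astroglial cells in the separate fits, and a term of -1.78. Among core subunits of complex I the difference was -0.90 for *Ndufv2*. Among accessory subunits of complex I the difference was -1.66 for *Ndufa8*, -1.25 for *Ndufb10*, -1.20 for *Ndufs5*, -1.19 for *Ndufa12*, -1.06 for *Ndufb7*, -1.06 for *Ndufb8*, -0.98 for *Ndufc2*, -0.88 for *Ndufa11*, -0.86 for *Ndufa5* and -0.85 for *Ndufa4*. In complex II the difference was -0.86 for *Sdhb*. In complex III the difference was -1.57 for *Uqcrfs1*, -1.37 for *Uqcrc1* and -0.66 for *Uqcr11*. In complex IV the difference was -1.46 for *Cox5a*, -0.99 for *Cox7b*, -0.96 for *Cox4i1*, -0.83 for *Cox5b* and -0.82 for *Cox8a*. In the ATP synthase the difference was -1.78 for *Atp5g3*, -1.07 for *Atp5l*, -0.92 for *Atp5c1*, -0.86 for *Atp5k*, -0.80 for *Atp5g1*, -0.75 for *Atp5mpl* and -0.72 for *Atp5j*. Among the mt- genes the difference was -2.24 for *mt-Atp8*, -2.18 for *mt-Nd4l*, -1.91 for *mt-Atp6*, -1.81 for *mt-Nd5*, -1.78 for *mt-Co3*, -1.71 for *mt-Cytb*, -1.70 for *mt-Nd3*, -1.69 for *mt-Co1*, -1.68 for *mt-Co2*, -1.67 for *mt-Nd4*, -1.58 for *mt-Nd1* and -1.51 for *mt-Nd2*. The microglial sums rest on 17 to 46 cells per library. Without scaling beyond library totals, 10 members passed. The median term over members was then -0.27 in place of -0.63, and that over all genes 0.27 in place of -0.09.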

How the results depend on the processing

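Counts of members that passed moved with the settings. For age in astroglial cells (11 higher, 2 lower), the replicate block gave 17 and 10, and cells under 5% mt- UMIs gave 5 and 1. Whether the replicate numbers pair the libraries is not known. Correlations were 0.206, 0.0993 and 0.039 for libraries of the same number and -0.173 to 0.142 for those of different numbers. Lower members numbered 11 without scaling, 7 with DESeq2, 10 without a filter on low counts, 8 in the telencephalic sub-clusters, 5 without cells with oligodendrocyte markers, and 1 both after thinning and without cycling sub-clusters. Leaving out 1 library gave 5 to 13 higher, 1 to 4 lower and 2 to 4 at least 2-fold higher. In microglia (5 lower, 3 of them at least 2-fold), no scaling gave 8 and 5, no filter 8 and 6, DESeq2 3 lower, and leaving out 1 library 1 to 7 and 1 to 5. The mt- genes higher there (1) were 0 without a filter, 6 with the replicate block and 0 to 2 with a library left out. For oligodendrocytes (3 higher, 53 lower), DESeq2 gave 1 higher, no filter 5, no replicate block 0 and leaving out a library 1 to 4 higher and 31 to 47 lower. The mt- genes there (1 higher, 7 lower) were 0 higher with DESeq2, 0 and 3 with no replicate block, and 0 to 1 and 2 to 9 with a library left out. For cycling cells (55 higher, 6 lower), no scaling gave 27 and 10, and no replicate block 4 and 1, with 2 mt- genes lower (10) and 1 member at least 2-fold lower (2). Leaving out a library gave 4 lower each time. *Ndufa3* there changed sign without scaling, from 0.00 to -0.15. For the difference between microglia and astroglial cells (27 lower, 0 higher), no scaling gave 10, and leaving out a library 12 to 27 lower and 0 to 1 higher. The causes were not tested, apart from fewer cells or libraries where these were left out. Microglial sums and the 3m astroglial sums of *Cox8b* and *Cox7b2* limit precision.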
